A study of Mus musculus with 24 samples.

Results

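The genes of the respiratory chain were followed in murine pancreatic stellate cells (PSC) that had been co-cultured with pancreatic cancer cells. Members were all protein-coding genes whose symbol in the GENCODE M21 annotation named a subunit of complexes I to V (Nduf with a subunit letter and number, Sdha to Sdhd, Uqcr, Cox4 to Cox8 and Atp5) or a protein of the mitochondrial genome (mt-). The rule found 97 of 53801 listed genes, 84 encoded in the nucleus and 13 in mitochondrial DNA. It used names alone and no measured value. Of the nuclear-encoded members, 37 belonged by name to complex I, 4 to complex II, 8 to complex III, 18 to complex IV and 17 to complex V, while the mitochondrially encoded members were 7 of complex I, 1 of complex III, 3 of complex IV and 2 of complex V. Cyc1, Ndufab1 and the assembly factors have other kinds of symbols and were examined only as companion genes.

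The respiratory chain sits in the inner mitochondrial membrane. Complexes I and II take electrons from NADH and succinate, complex III passes them to cytochrome c, complex IV hands them to oxygen, and complex V, the ATP synthase, uses the proton gradient that results. Most subunits are transcribed in the nucleus and imported, whereas mitochondrial DNA is transcribed on its own as long polycistronic RNAs, so the subunits of most complexes are made from both genomes. Some subunits have an alternative form that replaces the common one in certain tissues or at low oxygen, of which Ndufa4l2 (for Ndufa4) and Cox4i2 (for Cox4i1) are the best known.

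The pancreata of 4 to 10 wild-type C57BL/6J mice of both sexes, aged 7 to 10 weeks, were pooled for each isolation of PSC, which were used at passage 1 to 2. KPC cells are a pancreatic cancer line from a genetically engineered mouse. For standard co-culture, PSC were kept on a membrane with 1 µm pores above KPC cells attached to the well, and for inverse co-culture the cell types faced each other across such a membrane. RNA of PSC was sequenced after 24 h and 72 h, and the control in each model was PSC cultured alone, which gave 8 groups of 3 libraries. In the inverse model KPC cells were seeded first, so that the cells coexisted for up to 96 h rather than 72 h. Its libraries were made from 120 ng of RNA rather than the 450 ng of the standard model. PSC of the standard model, controls included, were changed to a new medium when timing began, whereas those of the inverse model had that medium from seeding. RNA input, coexistence, medium and model therefore cannot be told apart. Nothing in the labels assigns libraries to isolations, so p-values measure the spread between these libraries.

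Libraries held 15932736 to 24798761 counted fragments. Markers of stellate cells and fibroblasts were high in all libraries (summed FPKM, a fragment count scaled by gene length and depth, of 11 genes from 23566 to 46164), but Gfap stayed at or below 0.237 FPKM and Lrat at or below 0.0306 FPKM. Markers of other cells differed between the inverse groups. At 72 h the summed FPKM of 11 adipocyte-like markers was 1918 to 2867 in control PSC and 455 to 1043 in co-cultured PSC, that of 10 macrophage markers was 128 to 251 and 55.5 to 84.5, and none of these markers was at 0 in all libraries of either group. In the standard model the summed macrophage markers ranged from 39.1 to 1337, and replicate 2 stood apart in each of its 4 groups, with 266 to 916 FPKM of Lyz2 beside 26.3 to 132 FPKM in the other replicates. Replicate 1 had the most Acta2 in each of these groups, 1193.7 to 5963.4 FPKM beside 476.2 to 1509.1 FPKM in the other replicates. Epithelial markers were low, apart from replicate 2 of inverse co-culture at 24 h, which had 15.2 FPKM of Krt8 and 11.6 FPKM of Krt19. Krt19 was also present in its other replicates (1.64 and 2.53 FPKM) and in inverse co-culture at 72 h (1.83, 1.17 and 3.11 FPKM). No inverse control library had more than 0.37 FPKM. The summed epithelial markers at 72 h overlapped, with 4.77 to 10.7 FPKM in inverse co-culture and 2.5 to 6.71 FPKM in its control. In bulk RNA, fewer cells of one type and less RNA per cell cannot be told apart.

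The promoters of 3 nuclear-encoded members that were lower in inverse co-culture at 72 h (Ndufs7, Sdha and Uqcrfs1) and of Ndufa4 are shown because nuclear respiratory genes are classically tied to the motifs of NRF1, ETS factors such as GABPA, and YY1. Each covers 250 bases before the start site and 50 after it (RefSeq, GRCm38.p6, 5′ to 3′ on the gene's strand), and capitals mark matches on either strand to the motifs of NRF1 (in Sdha, the longer runs) and YY1 (in Ndufs7), to CCGGAAG (ETS) and to ACGTG (core of the hypoxia response element).
Ndufs7 (chr10:80249199-80249498, + strand): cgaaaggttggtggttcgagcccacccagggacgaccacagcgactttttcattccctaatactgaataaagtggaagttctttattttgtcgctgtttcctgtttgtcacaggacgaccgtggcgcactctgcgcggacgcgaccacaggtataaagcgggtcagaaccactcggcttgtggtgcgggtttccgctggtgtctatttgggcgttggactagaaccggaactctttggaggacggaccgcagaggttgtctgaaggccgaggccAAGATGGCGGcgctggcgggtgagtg
Sdha (chr13:74350191-74350490, - strand): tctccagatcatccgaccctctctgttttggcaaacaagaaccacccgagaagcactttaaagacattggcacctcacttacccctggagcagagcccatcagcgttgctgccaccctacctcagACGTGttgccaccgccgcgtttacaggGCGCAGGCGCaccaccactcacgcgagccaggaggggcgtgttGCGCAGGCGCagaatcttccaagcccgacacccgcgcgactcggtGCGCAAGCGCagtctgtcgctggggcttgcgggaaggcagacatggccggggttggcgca
Uqcrfs1 (chr13:30545267-30545566, - strand): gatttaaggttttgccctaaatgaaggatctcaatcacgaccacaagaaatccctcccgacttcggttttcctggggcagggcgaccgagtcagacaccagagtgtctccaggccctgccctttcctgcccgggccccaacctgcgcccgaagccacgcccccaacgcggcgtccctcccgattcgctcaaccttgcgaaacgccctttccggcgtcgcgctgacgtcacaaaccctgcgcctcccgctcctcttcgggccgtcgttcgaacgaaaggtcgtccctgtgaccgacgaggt
Ndufa4 (chr6:11907401-11907700, - strand): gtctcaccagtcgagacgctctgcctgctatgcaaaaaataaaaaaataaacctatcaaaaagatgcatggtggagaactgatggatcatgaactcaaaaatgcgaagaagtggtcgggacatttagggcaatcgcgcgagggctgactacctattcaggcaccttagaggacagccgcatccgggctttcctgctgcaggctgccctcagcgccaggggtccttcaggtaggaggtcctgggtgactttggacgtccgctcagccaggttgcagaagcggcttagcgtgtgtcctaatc

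The Sdha promoter held 3 NRF1 matches and 1 ACGTG, that of Ndufs7 held 1 YY1 match, and those of Uqcrfs1 and Ndufa4 held none. No matches overlapped. Among the 66 of 84 nuclear-encoded members with a promoter sequence, 25.8% held the NRF1 motif, against 5.19% of 27025 genes. The ETS motif was found in 24.2% of members and 9.93% of all genes, the YY1 motif in 7.58% and 0.995%, and ACGTG in 24.2% and 21.8%. Sequences of Ndufa4l2, Cox4i1 and Cox4i2 were not among them. A match describes letters in this window only.

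PSC expressed nearly the whole respiratory chain. In all 24 libraries 89 of 97 members were above 1 FPKM, 4 passed this level in some libraries, and 4 in none, of which Ndufs3, Cox7b2 and Cox8c were listed at 0 throughout. The Ndufs3 transcript was matched along 84.1% of its length, at 95% identity or more, by other annotated genes (8.41% at 99% or more). Its 0 therefore need not mean that the gene was silent, and the part of these matches was not tested. The most abundant nuclear-encoded members of complexes II to V by mean FPKM were Sdha (240.1) in complex II, Uqcrq (120.2) in complex III, Cox4i1 (297) in complex IV and Atp5b (809) in complex V. Sdha belongs to the catalytic core of its complex, Uqcrq is a small accessory subunit, Cox4i1 is the common form of subunit 4, and Atp5b carries the catalytic sites of the ATP synthase. Some members varied widely between libraries, as Uqcrc1, a core subunit of complex III, ranged from 2.41 to 21.7 FPKM and Ndufa12 ranged from 6.75 to 36.6 FPKM.

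Mitochondrially encoded members accounted for 0.698% to 1.36% of all counted fragments, with mt-Co1 (44.7% of these fragments), mt-Cytb (16.8%), mt-Nd5 (11.5%) and mt-Nd1 (9.79%) in the lead. Mitochondrial RNA was measured after poly(A) selection, so these shares need not equal the share in total RNA. Of the 13 mitochondrial genes, mt-Co2, mt-Co3, mt-Atp6, mt-Nd3 and mt-Nd4l had mean FPKM values of 8.02 to 22.3, whereas mt-Co1 had 3086. The transcripts of these 5 genes were matched along at least 99% of their length, at 99% identity or more, by transcripts of other annotated genes, mt-Nd4 along 63.6% and mt-Co1 along 31.3%. For mt-Nd1, mt-Nd2, mt-Nd5, mt-Nd6 and mt-Cytb this share was 0. At 95% identity or more it was 52.3% for mt-Nd5, 49.1% for mt-Nd2 and 100% for mt-Co1. It stayed at 0 for mt-Nd1, mt-Nd6 and mt-Cytb. Reads that map to several places were not counted, so the levels of the first 5 genes are uncertain, and mt-Atp8, which ranged from 0 to 1.64 FPKM, shares 21.1% of its bases with mt-Atp6.

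**Figure D1:**
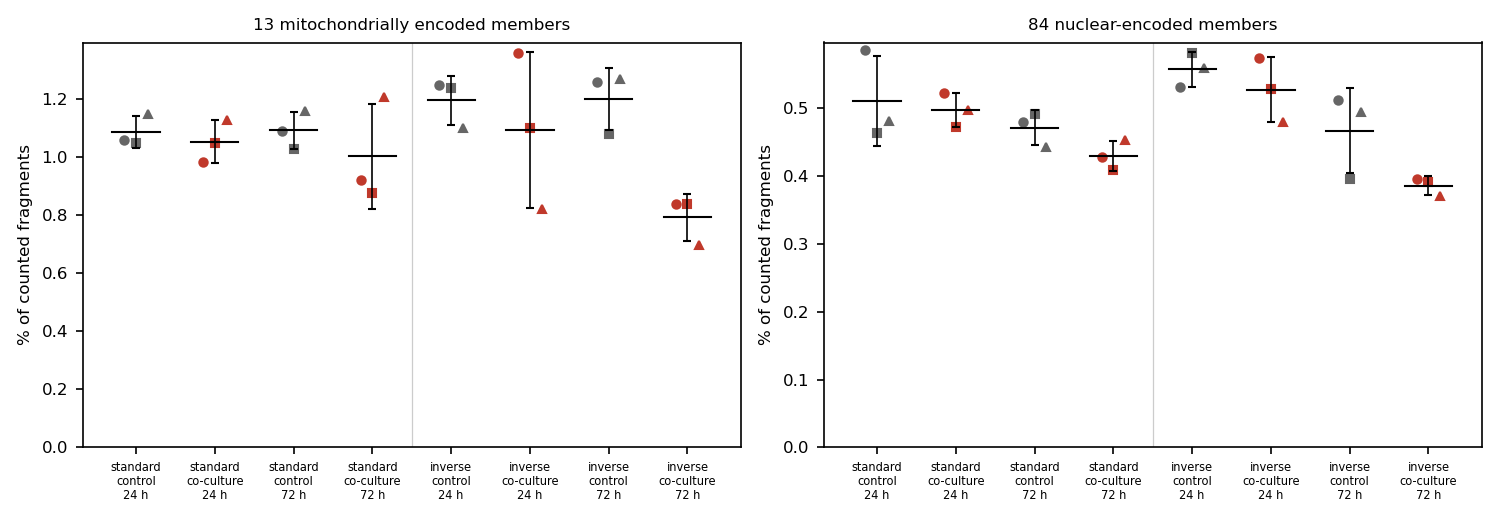
Share of all counted fragments (percent, y axis) that came from the 13 mitochondrially encoded members (left) and the 84 nuclear-encoded members (right) in each group (x axis). Grey points are control PSC and red points co-cultured PSC, with circles, squares and triangles for replicates 1, 2 and 3, and lines with bars give mean and SD (n = 3). The lowest mean belonged to co-cultured PSC of the inverse model at 72 h in both panels, 0.793% and 0.386%.

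The first question was whether co-culture changed respiratory chain genes relative to control PSC of the same model and time point. The clearest change was seen in inverse co-culture at 72 h. Of 92 members tested, 2 rose and 9 fell at an adjusted p under 0.05. Both that rose, Ndufa4l2 and Cox4i2, were alternative forms of nuclear-encoded subunits, and 6 of the 9 that fell were mitochondrially encoded. Among all genes tested in this comparison, 12.8% were called, 3.27% up and 9.57% down, so that the share of members that fell (9.78%) was near that of all genes. By genome, 6 of 12 mitochondrially encoded members tested (50%) and 3 of 80 nuclear-encoded members (3.75%) fell. The difference between these shares was not tested, and mitochondrial genes are transcribed together.

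Of the 6 mitochondrially encoded members that fell in inverse co-culture at 72 h, 5 encode core subunits of complex I and mt-Cytb encodes cytochrome b, the core of complex III. mt-Nd4 (chrM:10167-11544, + strand) had 407, 401 and 339 FPKM in co-cultured PSC and 654, 598.5 and 724 FPKM in control PSC. mt-Nd5 (chrM:11742-13565, + strand) had 533, 514 and 496 FPKM against 809.7, 818 and 834 FPKM. Every co-cultured library lay below every control library for both genes. Genes called were chosen on these same libraries, so a separation of their groups adds no support to the call. On the log2(FPKM + 0.5) scale, on which all fold changes are given, mt-Nd4 fell by 0.78 (SE 0.12, adjusted p = 0.0101) and mt-Nd5 fell by 0.67 (SE 0.10, adjusted p = 0.00832).

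For mt-Cytb (chrM:14145-15288, + strand), levels were 1112, 1169 and 970.0 FPKM in co-cultured PSC and 1853, 1511 and 1811 FPKM in control PSC. For mt-Nd1 (chrM:2751-3707, + strand), they were 841, 841 and 647 FPKM against 1291, 997.6 and 1309 FPKM. The groups did not overlap for either gene. The log2 fold changes were -0.67 for mt-Cytb, -0.63 for mt-Nd1, -0.71 for mt-Nd2 and -0.68 for mt-Nd6, the only protein gene on the other strand of mitochondrial DNA. Of mt-Nd6 bases, 2.7% are shared with mt-Nd5. Counting disregarded the strand, so RNA of the opposite strand at this place cannot be told apart from mt-Nd6.

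The other 6 mitochondrially encoded members tested were also lower, without passing the threshold. mt-Co1 (chrM:5328-6872, + strand), the catalytic subunit of complex IV, had 2593, 2569 and 2062 FPKM in co-cultured PSC and 3600.2, 3088 and 3606 FPKM in control PSC, with a log2 fold change of -0.51 (SE 0.16, adjusted p = 0.0746). These groups did not overlap either. The remaining log2 fold changes were -0.70 for mt-Atp6, -0.54 for mt-Nd3, -0.45 for mt-Nd4l, -0.44 for mt-Co3 and -0.37 for mt-Co2. The median over the 12 genes was -0.65, against -0.28 over 80 nuclear-encoded members and -0.16 over all genes tested. Of all counted fragments, 0.841%, 0.84% and 0.698% were from mitochondrially encoded members in co-cultured PSC and 1.26%, 1.08% and 1.27% in control PSC.

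**Figure D2:**
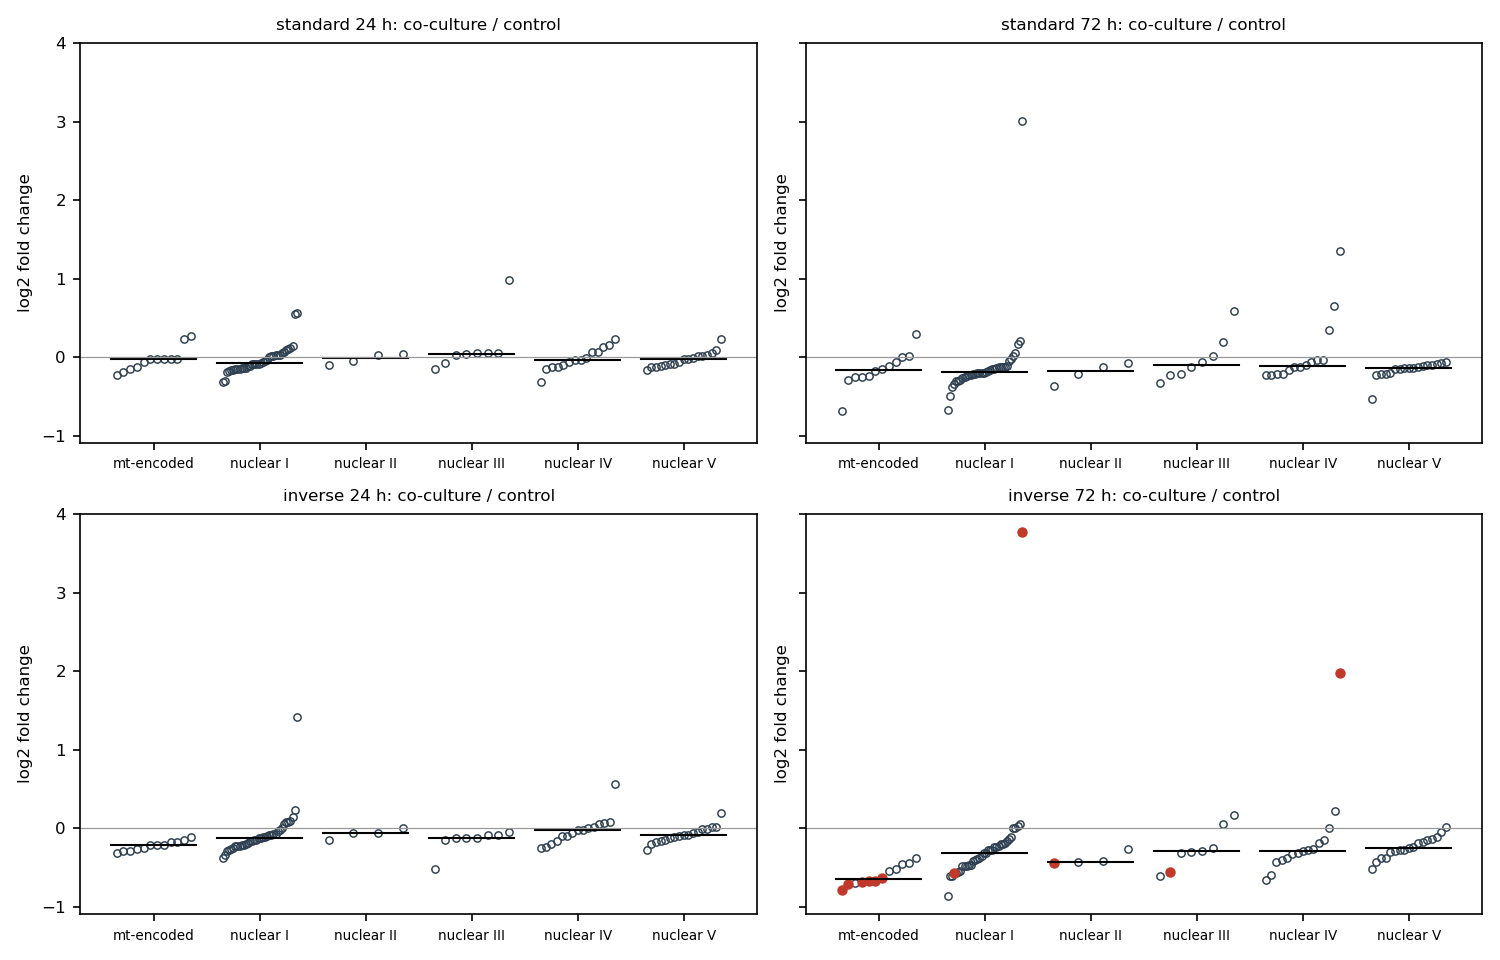
Log2 fold change of each member tested (y axis) in co-cultured PSC against control PSC, for mitochondrially encoded members and for nuclear-encoded members of each complex (x axis), in the 4 co-culture comparisons. Each circle is a gene, filled red where the adjusted p was under 0.05, and bars are medians. Only the panel of inverse co-culture at 72 h holds red points, with Ndufa4l2 at 3.77 and Cox4i2 at 1.98.

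Among nuclear-encoded members, 3 fell in inverse co-culture at 72 h. Ndufs7, a core subunit of complex I that carries an iron-sulfur cluster, had 48.1, 50.6 and 41.1 FPKM in co-cultured PSC and 74.9, 64.1 and 68.4 FPKM in control PSC. Uqcrfs1, the Rieske iron-sulfur protein of complex III, had 40.8, 40.5 and 42.7 FPKM against 62.7, 53.7 and 66.6 FPKM. Sdha, the flavoprotein of complex II that oxidizes succinate, had 207, 218 and 218 FPKM against 315, 268 and 288 FPKM. In all 3 genes, which were chosen by their call, the co-cultured libraries lay below the control libraries. Ndufs7 fell by 0.57 (SE 0.115, adjusted p = 0.0212), Uqcrfs1 fell by 0.55 (SE 0.11, adjusted p = 0.0191) and Sdha fell by 0.43 (SE 0.10, adjusted p = 0.0311).

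The rest of the nuclear-encoded chain was mostly lower by smaller amounts. The median log2 fold change was -0.31 in complex I (31 of 36 members lower, 1 fell and 1 rose), -0.42 in complex II (4 of 4 lower, 1 fell), -0.29 in complex III (6 of 8 lower, 1 fell), -0.28 in complex IV (12 of 15 lower, 1 rose) and -0.25 in complex V (16 of 17 lower, 0 called). Of all genes tested, 68.3% were lower. Sdhc and Sdhd, the membrane anchors of complex II, had log2 fold changes of -0.43 and -0.41 (adjusted p = 0.0616 and 0.0745), and Ndufv1, the NADH-binding subunit of complex I, had -0.40 (adjusted p = 0.0566). The most abundant members of complexes III to V gave 0.06 for Uqcrq, -0.39 for Cox4i1 and -0.27 for Atp5b, none past the threshold.

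**Figure D3:**
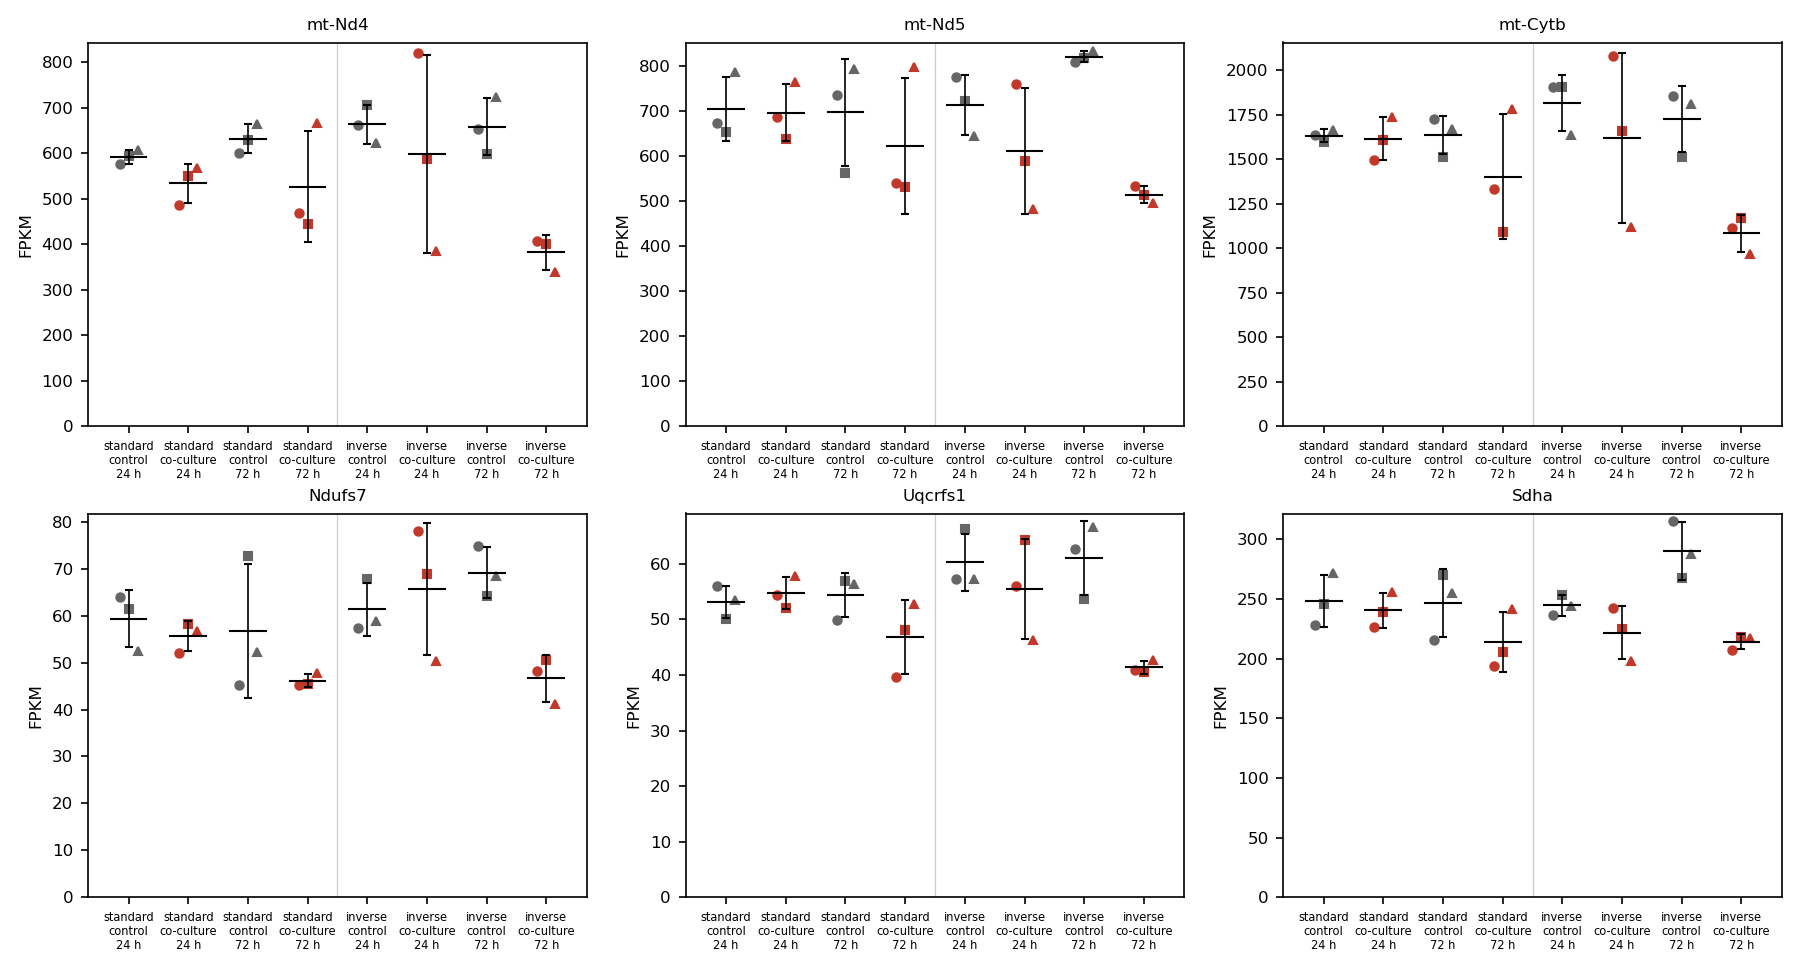
FPKM (y axis, from 0) of mt-Nd4, mt-Nd5, mt-Cytb, Ndufs7, Uqcrfs1 and Sdha in each group (x axis), all of which fell in inverse co-culture at 72 h. Grey points are control PSC and red points co-cultured PSC, with circles, squares and triangles for replicates 1, 2 and 3, and lines with bars give mean and SD (n = 3). In inverse co-culture at 24 h the libraries of mt-Nd4 spread from 385 to 819 FPKM and those of Sdha from 198 to 243 FPKM.

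Ndufa4l2, the alternative form of Ndufa4 that is known as a target of hypoxia-inducible factor, showed the largest change of any member. It had 117, 51.5 and 144 FPKM in inverse co-culture at 72 h and 4, 10.9 and 6.27 FPKM in the control. The groups were far apart, and the log2 fold change was 3.77 (SE 0.44, adjusted p = 0.00475). Ndufa4l2 lies at chr10:127514967-127517154 (+ strand), and 2.92% of its exon bases overlap Shmt2, which is transcribed from the opposite strand.

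Ndufa4 itself, which is grouped with complex I by its name but is known as a subunit of cytochrome c oxidase, had 87.5, 77.2 and 32.4 FPKM in co-cultured PSC and 136, 92.3 and 105 FPKM in control PSC (log2 fold change -0.86, SE 0.35, adjusted p = 0.140). Ndufa4l2 thus made up 59.7% ± 21 (SD, n = 3) of the summed FPKM of both forms in inverse co-culture at 72 h and 6.34% ± 3.87 in the control. In the library with the least Ndufa4 the share was 81.7%, and the lowest of the 3 co-cultured libraries had 40.0%.

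Cox4i2, the form of cytochrome c oxidase subunit 4 known for its expression in lung and at low oxygen, had 18.3, 5.51 and 21 FPKM in inverse co-culture at 72 h and 2.43, 2.41 and 4.13 FPKM in the control. The groups did not overlap, although replicate 2 was close to the controls. The log2 fold change was 1.98 (SE 0.47, adjusted p = 0.0340). Cox4i1, the common form, had 212, 236 and 206 FPKM against 322, 226 and 323 FPKM (log2 fold change -0.39, SE 0.16, adjusted p = 0.128). Cox4i2 made up 6.49% ± 3.70 (SD, n = 3) of the summed FPKM of both forms after co-culture and 1.02% ± 0.259 in the control, so that Cox4i1 remained the main form.

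Ndufa4l2 and Cox4i2 were high in some libraries of other co-culture groups as well. In standard co-culture at 72 h, Ndufa4l2 had 65.9, 102 and 10.3 FPKM and 9.85, 2.55 and 3.99 FPKM in the control (log2 fold change 3.01, SE 0.89, adjusted p = 0.723). All 3 co-cultured libraries were above the controls, but replicate 3 only by little. In inverse co-culture at 24 h it had 20.4, 14.5 and 210.1 FPKM against 12, 12.5 and 21.1 FPKM, and in standard co-culture at 24 h 6.09, 11 and 3.44 FPKM against 4.87, 4.3 and 3.19 FPKM. These groups overlapped, and replicate 3 of inverse co-culture at 24 h stood far above its companions.

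The same libraries were high in Cox4i2. Replicate 3 of inverse co-culture at 24 h had 34.8 FPKM beside 5.87 and 7.41 FPKM in the other replicates, and in standard co-culture at 72 h replicates 1 and 2 had 13 and 11.3 FPKM beside 1.95 FPKM in replicate 3. Replicate 3 of inverse co-culture at 24 h also had the lowest share of mitochondrially encoded fragments of its group, 0.821% beside 1.36% and 1.10%. No test was applied to this coincidence, which was noticed after the values were seen.

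**Figure D4:**
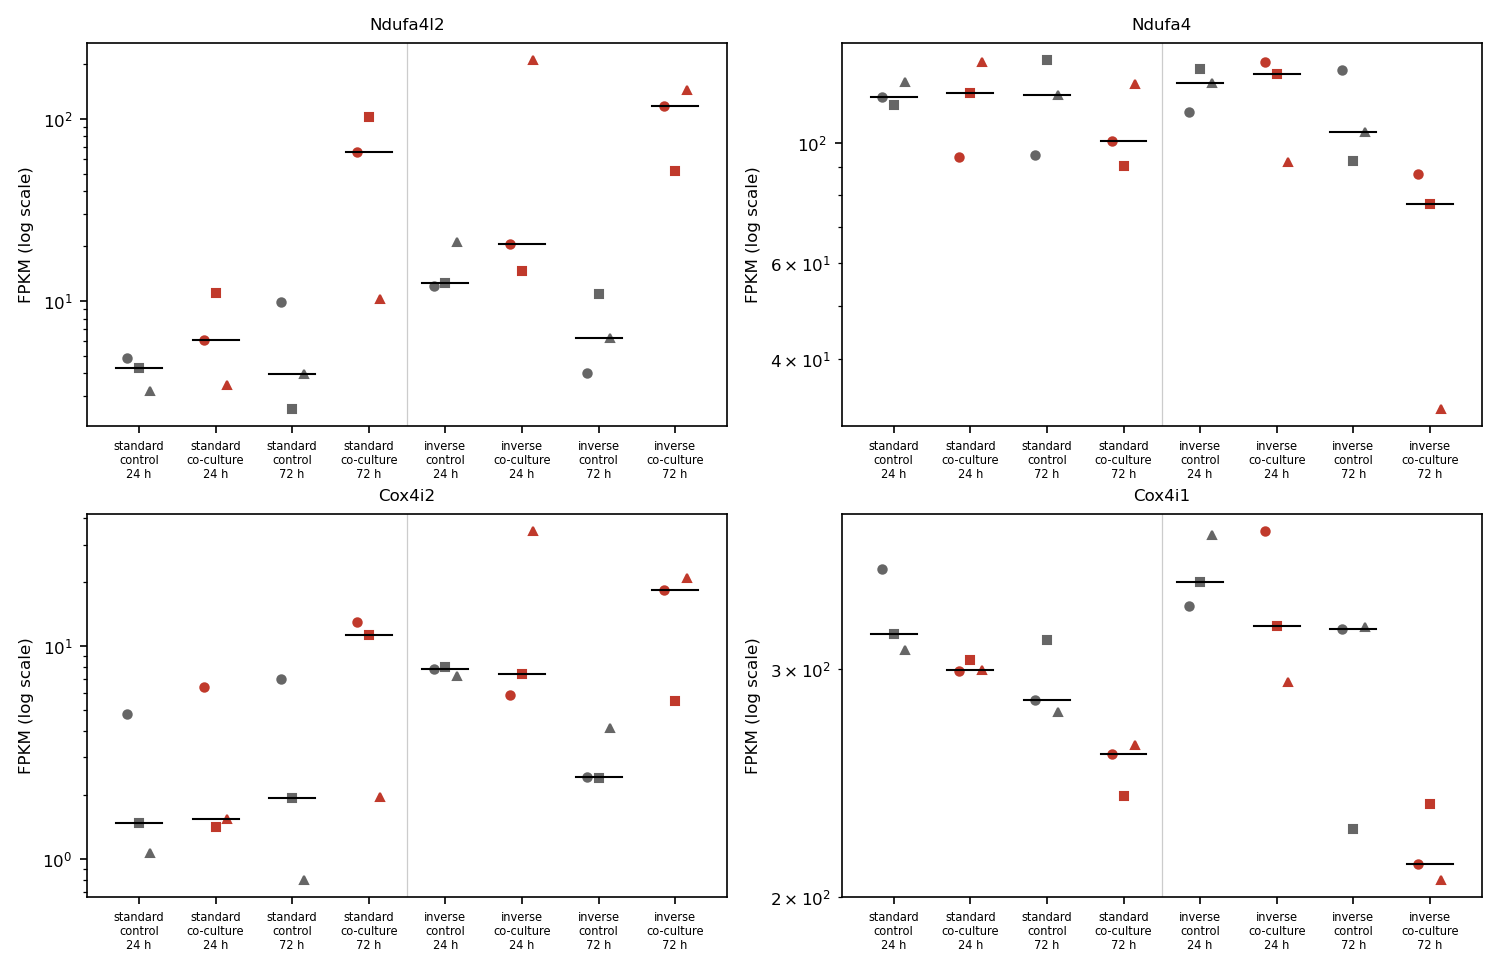
FPKM on a log axis (y axis) of Ndufa4l2, Ndufa4, Cox4i2 and Cox4i1 in each group (x axis). Grey points are control PSC and red points co-cultured PSC, with circles, squares and triangles for replicates 1, 2 and 3, and lines are medians. Ndufa4l2 ranged from 2.55 to 210.1 FPKM over the 24 libraries, whereas Cox4i1 ranged from 206 to 384 FPKM.

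Other alternative forms were minor in PSC in all groups. Cox6a2 and Cox7a1, the forms typical of heart and skeletal muscle, made up at most 2.58% of Cox6a1 and Cox6a2 and at most 5.11% of Cox7a1 and Cox7a2, and Cox6b2, typical of testis, made up 4.11% to 14.7% of Cox6b1 and Cox6b2. Cox7b2 and Cox8c were listed at 0, and Cox8b stayed near 0. Of the genes for subunit c of the ATP synthase, Atp5g1, Atp5g2 and Atp5g3 had log2 fold changes of -0.05, -0.11 and -0.42 in inverse co-culture at 72 h (adjusted p = 0.891, 0.603 and 0.116). Cox7a2l, related to Cox7a2 and known to join complexes into supercomplexes, had 0.22 (adjusted p = 0.203), and Cox7a2 had -0.18 (adjusted p = 0.429).

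In the other 3 co-culture comparisons no member passed the threshold. Among all genes tested, 0% were called at either time point of the standard model, and 2.47% in inverse co-culture at 24 h (1.39% down). At an unadjusted p under 0.05, there were 0 of 91 members in standard co-culture at 24 h, 3 of 91 at 72 h and 3 of 92 in inverse co-culture at 24 h. Without the share of all genes at this unadjusted limit, nothing is concluded from these counts. With voom on fragments recovered from the FPKM values, the count of members called was also 0 in each.

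In standard co-culture at 24 h the median log2 fold change was -0.04 for nuclear-encoded and -0.02 for mitochondrially encoded members, beside -0.01 for all genes. The highest values were those of Uqcrc1 (0.99, SE 0.49), Ndufa12 (0.57, SE 0.32) and Ndufa4l2 (0.55, SE 0.41), and the lowest those of Ndufb9 (-0.31), Cox6b2 (-0.31) and Ndufb2 (-0.30). None of these passed the threshold (adjusted p = 1 for each).

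In standard co-culture at 72 h, 77 of 91 members were lower, with medians of -0.14 for nuclear-encoded and -0.16 for mitochondrially encoded members, beside -0.09 for all genes, of which 65.5% were lower. All 17 tested nuclear-encoded members of complex V were lower, with a median of -0.14. Apart from Ndufa4l2, the highest values were those of Cox4i2 (1.35, SE 0.87) and Cox6a2 (0.65, SE 0.49), and the lowest those of mt-Nd3 (-0.68), Ndufa12 (-0.67) and Atp5s (-0.52). The share of mitochondrially encoded fragments was 0.923%, 0.877% and 1.21% in co-cultured PSC and 1.09%, 1.03% and 1.16% in control PSC, so the groups overlapped through replicate 3, which also had the least Ndufa4l2 of the co-cultured libraries.

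In inverse co-culture at 24 h, 74 of 92 members were lower, with medians of -0.10 for nuclear-encoded and -0.21 for mitochondrially encoded members, beside -0.06 for all genes. All 12 mitochondrially encoded members tested were lower, mt-Nd4l by the most (-0.31). Ndufa4l2 (1.41, SE 0.83), Cox4i2 (0.57, SE 0.54) and Ndufa6 (0.24, SE 0.13) had the highest log2 fold changes and Uqcrc1 (-0.51), Ndufa12 (-0.37) and Ndufb7 (-0.33) the lowest.

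Co-culture effects in the 2 models were compared directly in a fit of the 24 libraries. Of 93 members tested, 0 passed the threshold for a difference between the effects in the 2 models, at 24 h or 72 h. Among all genes, 0% were called in each. This does not show that the effects were equal, and the fit disregarded that same-numbered libraries of the standard model deviated together. At 72 h the median difference (inverse minus standard) was -0.50 over the 13 mitochondrially encoded members and -0.14 over the nuclear-encoded members, beside -0.07 over all genes. For Ndufa4l2 the difference was 0.77 (SE 1.19), for mt-Nd5 -0.50 (SE 0.24) and for mt-Nd2 -0.57 (SE 0.25), with an adjusted p of 0.997 for each. At an unadjusted p under 0.05 there were 5 members at 72 h and 0 at 24 h, given without the share of all genes and read no further. For a difference between the time points in the effect of co-culture, 0 of 92 members in each model and 0% of all genes passed the threshold. In the inverse model Ndufs7 differed by -0.65 (SE 0.21, adjusted p = 0.340) and Ndufa4l2 by 2.36 (SE 1.10, adjusted p = 0.468).

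The second question was how respiratory chain genes changed in culture over time. In control PSC of the inverse model, many nuclear-encoded members were lower at 72 h than at 24 h, whereas 6 of 12 mitochondrially encoded members were lower and 6 higher. Of 80 nuclear-encoded members tested, 17 fell and 0 rose (21.2% down), and among all genes tested 19.2% were called, 9.05% down and 10.2% up. The median log2 fold change was -0.34 over nuclear-encoded and 0.01 over mitochondrially encoded members (-0.03 when libraries were scaled by the median of gene ratios), beside 0.04 over all genes. The nuclear median was -0.34 in complex I, -0.09 in complex II, -0.37 in complex III, -0.39 in complex IV and -0.36 in complex V, with all 15 and all 17 tested nuclear-encoded members of complexes IV and V lower.

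Among the genes that fell were Uqcrq, Cox7a2l and Atp5e. Uqcrq, a small subunit of complex III, had 102.5, 86.6 and 102 FPKM at 72 h and 137, 152 and 148 FPKM at 24 h, and fell by 0.59 (SE 0.10, adjusted p = 0.00513). Cox7a2l had 93.1, 84.2 and 102 FPKM against 126, 143 and 147 FPKM, and fell by 0.57 (SE 0.10, adjusted p = 0.00705). Atp5e, the epsilon subunit of the ATP synthase, had 49.3, 41.7 and 54.9 FPKM against 86.3, 77.7 and 66.9 FPKM, and fell by 0.66 (SE 0.13, adjusted p = 0.0108). In each of the 3 genes, which were chosen among those called, the time points did not overlap.

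Further genes that fell were Ndufa2 (-0.73), Ndufa1 (-0.62), Ndufa13 (-0.40) and Ndufb5 (-0.36) of complex I, Cox7a2 (-0.56), Cox6a1 (-0.48) and Cox5b (-0.43) of complex IV, and Atp5k (-0.71), Atp5j2 (-0.59), Atp5g1 (-0.58), Atp5g2 (-0.49) and Atp5d (-0.37) of complex V. Cox5b shares 50.3% of its longest transcript, at 99% identity or more, with other annotated transcripts, Ndufa13 30% and Atp5g2 26.8%, so their levels are less certain. Both alternative forms fell too in the absence of KPC cells. Cox4i2 went from 7.82, 7.95 and 7.28 FPKM to 2.43, 2.41 and 4.13 FPKM (log2 fold change -1.26, SE 0.21, adjusted p = 0.00513), and Ndufa4l2 from 12, 12.5 and 21.1 FPKM to 4, 10.9 and 6.27 FPKM (-1.11, SE 0.33, adjusted p = 0.0478). The inverse control at 72 h, against which co-culture was compared, was therefore lower in both genes than the control at 24 h.

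Mitochondrially encoded mt-Nd3 and mt-Nd4l, 2 of the 5 genes with near-identical matches elsewhere, rose in the inverse control, by 0.87 (SE 0.25, adjusted p = 0.0400) and 0.73 (SE 0.21, adjusted p = 0.0398). mt-Nd3 had 15.1, 14.5 and 30 FPKM at 24 h and 32.7, 33.0 and 39.1 FPKM at 72 h.

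In inverse co-culture, 78 of 80 nuclear-encoded members were lower at 72 h than at 24 h, with a median log2 fold change of -0.51, and the median of mitochondrially encoded members was -0.45, beside -0.07 for all genes. None of the members passed the threshold, and 0.00784% of all genes were called. At an unadjusted p under 0.05, 64 of 92 members and 1953 of 12758 genes were found. Atp5mpl (-0.99, SE 0.17) and Cox4i1 (-0.61, SE 0.13) had adjusted p of 0.131 and 0.147. Nuclear-encoded members made up 0.386% ± 0.0139 (SD, n = 3) of fragments at 72 h and 0.527% ± 0.0474 at 24 h, and the ranges (0.37% to 0.396% and 0.479% to 0.574%) did not overlap.

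In the standard model no member passed the threshold over time with or without KPC cells, and 0% of all genes were called in each. Median changes of nuclear-encoded members were -0.09 in control PSC (66 of 79 lower) and -0.21 in co-cultured PSC (72 of 80 lower), beside 0.01 and -0.07 over all genes. For mitochondrially encoded members they were -0.01 and -0.05, the latter 0.03 when libraries were scaled by the median of gene ratios. At an unadjusted p under 0.05 there were 0 members in control PSC and 14 in co-cultured PSC. The share of all genes at this unadjusted limit is not given here, so nothing is concluded from these counts. Controls and co-cultures in these comparisons are also the groups of the co-culture comparisons, so the medians are not independent of each other.

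**Figure D5:**
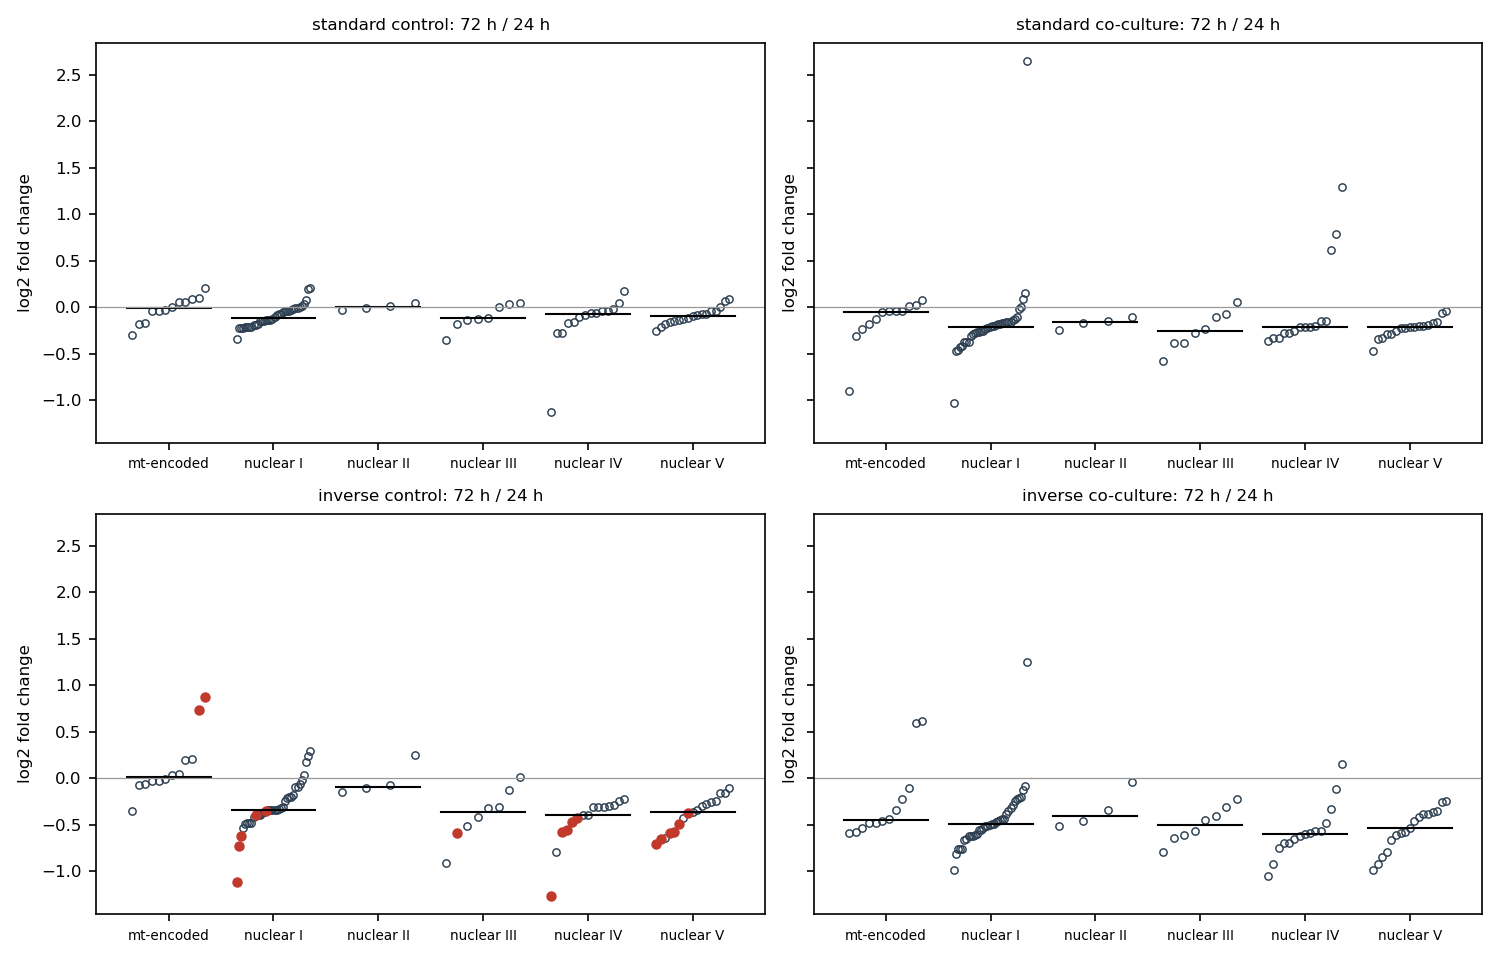
Log2 fold change of each member tested (y axis) at 72 h against 24 h, for mitochondrially encoded members and for nuclear-encoded members of each complex (x axis), in control and co-cultured PSC of both models. Each circle is a gene, filled red where the adjusted p was under 0.05, and bars are medians. Red points are seen in the inverse control alone, where 17 nuclear-encoded members fell and 2 mitochondrially encoded members rose, while in inverse co-culture the median of nuclear-encoded members is -0.51 with no gene called.

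Companion genes of the respiratory chain, in 6 lists, were examined in the same comparisons. Among all genes tested, 9.57% fell and 3.27% rose in inverse co-culture at 72 h. In the inverse control over time, 9.05% fell and 10.2% rose. In inverse co-culture at 72 h the pyruvate and citric acid cycle list had the most calls, as 10 of 20 genes fell and all 20 were lower (median log2 fold change -0.43). They included Pcx (-1.85), which makes oxaloacetate from pyruvate, and Mpc2 and Mpc1 (-1.30 and -1.13), which form the mitochondrial pyruvate carrier. Of 19 genes for electron carriers and ubiquinone synthesis, 4 fell (median -0.43), among them Coq8a (-1.35), Coq10a (-0.66) and Coq9 (-0.52), while Cyc1 (-0.47, adjusted p = 0.120), Cycs (-0.43, adjusted p = 0.142) and Ndufab1 (-0.48, adjusted p = 0.0729) did not pass the threshold.

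Of 48 assembly factors tested, 2 fell (Ndufaf3, -0.89, and Acad9, -0.50), with a median of -0.23. Of 36 genes that replicate, transcribe or translate mitochondrial DNA, 3 fell, namely Mterf4 (-1.36), Gfm1 (-0.59) and Lrpprc (-0.42), which stabilizes mitochondrial messenger RNA. Tfam, which packages and transcribes mitochondrial DNA, had -0.49 (adjusted p = 0.0773). Of 15 regulators, Myc rose (1.21) and Ppargc1a (-1.53), a coactivator of mitochondrial biogenesis that is also a marker of thermogenic fat, and Zbtb20 (-0.73) fell. Ppargc1a passed the filter on low values only through the control, with 1.38, 1.35 and 1.6 FPKM beside 0.329, 0.227 and 0 FPKM in co-culture. Of 21 genes of mitochondrial membranes and import, Ucp2 (-1.46) and Mfn2 (-0.56) fell. The shares of assembly factors, mitochondrial DNA genes and membrane genes that fell were no higher than that of all genes (9.57%).

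No companion gene was called in the other 3 co-culture comparisons. In the inverse control over time, by contrast, Pcx (1.47) and Pdhb (0.58) rose and no gene of the citric acid cycle list fell. Among assembly factors Cox17 rose (1.02) and Uqcc2 (-0.55) and Cmc2 (-0.53) fell. Mterf4 (0.85) and Mterf3 (0.41), Zbtb20 (0.99) and Ucp2 (0.87) rose, and Slirp (-0.77), Slc25a4 (-0.43), Vdac3 (-0.42) and Hspa9 (-0.34) fell. Of 19 electron carrier genes 0 were called, and whether they differed from the nuclear-encoded subunits was not tested.

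Markers of other cell types moved in the same 2 comparisons. In inverse co-culture at 72 h, 9 of 10 adipocyte-like markers tested fell (median log2 fold change -2.87), such as Plin1 (-4.32) and Adipoq (-3.77), and of the macrophage markers C1qa (-1.66), C1qb (-1.54), Cd14 (-1.88), Csf1r (-1.39) and Lyz2 (-1.30) fell. Adgre1 passed the filter on low values only through the control (2.61, 1.98 and 3.55 FPKM beside 0.314, 0.559 and 0.454 FPKM in co-culture), and Krt19 only through the co-culture (1.83, 1.17 and 3.11 FPKM beside 0.176, 0.116 and 0 FPKM). In the inverse control over time, 8 of 10 adipocyte-like markers rose (median 1.43) and 6 of 7 macrophage markers rose (median 1.16). Muc1 rose (1.19), but Krt8, Krt18, Epcam, Cdh1 and Cldn4 of the same epithelial list were at 0 at 72 h. Stellate markers moved in both directions. Acta2, the marker of activated stellate cells, fell (-1.43), and Vim and Des were lower in every library at 72 h. Pdgfra went from 224.9, 201.1 and 202.8 to 293.6, 273.0 and 306.0 FPKM, and Col3a1 was higher in every library too. Ucp1, the marker of thermogenic fat, was at 0 in 22 of 24 libraries. The part of these markers in the changes of respiratory chain and companion genes was not tested.

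The calls in inverse co-culture at 72 h depended on single libraries. Of 11 members called, 3 were called without replicate 1 of the co-culture, 3 without replicate 1 of the control and 2 without replicate 3 of the control. Ndufa4l2 and mt-Nd5 were called in each of these. Calls over time in the inverse control numbered 19, and 8, 5 and 9 without replicates 1, 2 and 3 at 24 h and 9 without replicate 3 at 72 h, in all of which Atp5e, Cox4i2, Cox7a2l and Uqcrq were called. When libraries were scaled by the median of gene ratios, which moved the median of all genes in inverse co-culture at 72 h from -0.16 to -0.01, the all-gene calls split into 746 up and 686 down instead of 427 and 1251, and the medians of nuclear-encoded and mitochondrially encoded members were -0.13 and -0.49.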

How the data were processed

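Poly(A)-selected RNA of PSC was sequenced (NovaSeq, paired ends of 150 bases). Per the submitters' processing notes and methods, the authors aligned reads with HISAT2 2.0.5 to GRCm38.p6 and obtained counts of fragments from featureCounts 1.5.0-p3, leaving out reads assigned to several places or genes, and tested with DESeq2 1.20.0, whose results were not used here. The annotation release is not given in the sources used here. The deposited values used were FPKM per library, made by the authors from these counts. Symbols were matched by gene ID to GENCODE M21.

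Genes above 1 FPKM in at least 3 of the libraries compared were tested on log2(FPKM + 0.5) with limma 3.58.1 (R 4.3.3; moderated test with intensity trend, two-sided), adjusted over all genes tested by the Benjamini-Hochberg method, with a limit of 0.05. This filter left out 5 or 6 of 97 members in comparisons of 6 libraries. Differences between effects were contrasts of the same kind, those between time points being added after the data were seen. Fragments were recovered from FPKM and gene length for depth, shares and voom. Values were whole in all libraries for 94.5% of genes and 87.6% of members, within 0.05 fragments or 2e-05 of the value. Near-identical transcripts were found with blastn 2.17.0. The scripts were tested on simulated data.

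Members and lists were chosen with earlier results of these data known. Named were the mitochondrially encoded members, members called (up to 10 per comparison and direction), the 3 highest and lowest in each co-culture comparison, the most abundant per complex (that of complex I is not reported here), alternative forms, and up to 3 called companion genes per list and direction. Others were chosen after their values were seen. In the standard model same-numbered libraries deviated together (correlations of 0.381 to 0.823 over all pairs and comparisons), so their numbers were taken to pair them. The main fits held no block for this pairing, so the SE and p-values given that use the standard model disregard it. It entered only the alternative with a block. Alternatives were other pseudocounts, filters, scalings, tests and limits, all 24 libraries in 1 fit, a block for replicate number, and leaving out each library.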

Additional observations from a re-analysis of the deposited data

How the results depend on the processing

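None of the member calls given above changed sign under the alternatives run. In inverse co-culture at 72 h the 11 members called became 5 with no filter on low values, 7 with the replicate block and 2 at an adjusted p limit of 0.01, and 2 to 15 when 1 library was left out. The median of mitochondrially encoded members was -0.49 with scaling by the median of gene ratios. With voom 13 members were called, and 15 in the fit of all 24 libraries. Over time in the inverse control the 19 members called became 5 with no filter, 30 with the median of gene ratios, 7 without the intensity trend, 5 in the fit of all 24 libraries and 3 at a limit of 0.01, and 5 to 21 when 1 library was left out. The replicate block gave 14 there. In inverse co-culture over time the count of 0 became 17 in the fit of all 24 libraries. The time difference of the co-culture effect in the inverse model had 0 to 1 members when 1 library was left out, 1 without replicate 3 of inverse co-culture at 24 h. More genes were tested with no filter, but the cause of these changes was not tested. In the standard model, where the numbers pair the libraries, the block changed no count of members called from 0. In the inverse model same-numbered libraries correlated from -0.171 to 0.214, so they share only a number. With 3 libraries per group, levels of members with near-identical transcripts are the least certain, and a difference that did not pass the threshold was not shown to be absent.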
